A study of Mus musculus with 80 samples.

Results

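The unfolded protein response genes and the ATF4 genes were followed in mouse lung after 1 inhalation exposure to styrene. The list holds 35 genes, chosen by name and divided into a chaperone arm of 19 genes and an ATF4 arm of 16 genes. A gene was represented by the array probe set that the annotation gives with that single symbol and, where several qualified, by the one with the highest mean over the 80 arrays. Of the 35 genes, 34 were found in this way among 17097 named genes, and all 34 passed the minimum on signal level that left 11406 genes for testing. They are the 19 chaperone arm genes and 15 of the ATF4 arm genes; Mthfd2 was not analysed here because its probe sets carry several symbols.

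The endoplasmic reticulum folds secreted and membrane proteins, and cells answer an excess of unfolded protein there through the sensors PERK, IRE1 and ATF6. ATF6 and the XBP1 protein made after IRE1 splices Xbp1 mRNA switch on chaperones, disulfide isomerases and the degradation machinery of the reticulum. PERK, like the other eIF2alpha kinases that sense amino acid shortage, viral RNA or haem shortage, lowers general translation while favouring translation of ATF4, which switches on amino acid transport, serine and asparagine synthesis and a set of stress regulators. In the lung, secretory cells such as club cells and alveolar type 2 cells carry a large protein folding load.

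The arrays came from 80 adult male mice, 5 in each of 16 groups, bought from Taconic and exposed once for 6 h to 0 (air), 10, 40 or 120 ppm styrene; lungs were collected on the morning after. The 4 kinds of mice were C57Bl/6 wild type (WT), C57Bl/6 mice in which CYP2F2 was knocked out (KO), C57Bl/6 mice humanized for CYP2F1 (TG), and mice of the outbred stock CD-1. Cyp2f2 encodes the main styrene-oxidizing cytochrome P450 of mouse club cells, and CYP2F1 is its human counterpart. The labels do not say what part of Cyp2f2 was removed, what drives CYP2F1, or whether the TG mice keep a working Cyp2f2. The RNA was of lung tissue and not of sorted cells, so fewer cells of a type and less RNA per cell cannot be told apart. Array values are log2 signals, on which a difference of 1 is a fold of 2.

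The median log2 signal of an array, over all probe sets, was 4.53 to 4.60 for WT lungs, 4.09 to 4.20 for KO lungs, 3.84 to 4.14 for TG lungs and 4.24 to 4.30 for CD-1 lungs. Members are therefore compared between strains in air after each array was centred on its median, and strains' deposited levels are not on 1 scale. On deposited values Cyp2f2 stood at 13.23 ± 0.03 (SD, n = 5) in WT air, 13.02 ± 0.09 in CD-1 air, 11.68 ± 0.10 in KO air and 11.66 ± 0.19 in TG air; whether its probes lie inside the deletion is unknown here. Club cell markers (7 of 7) and alveolar type 2 markers (4 of 4 found) were above the level minimum in every strain. Genes of squamous epithelium, which lines the upper airway and oesophagus and not the lung, were far higher on 3 arrays than on the rest. Their summed log2 level was 12.9 on WT 0 ppm replicate 1 and on WT 40 ppm replicate 3, 11.9 on CD-1 0 ppm replicate 4 and at most 7.84 elsewhere. Member counts are therefore also given without those 3 arrays.

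Promoters of the members were searched for the known elements of each arm. RefSeq (assembly GRCm38.p6) gave a window of 300 bases, from 250 bases before the transcription start to 50 after it, for 31 of the 35 listed genes. The windows were searched on both strands for the endoplasmic reticulum stress element (ERSE, which is CCAAT, then 9 of any base, then CCACG, known to be bound by NF-Y with ATF6), for ERSE-II (ATTGG, any base and CCACG, bound by ATF6 and XBP1) and for the C/EBP-ATF composite element (TGATGNAA, bound by ATF4 with a C/EBP partner). ERSE was present in 7 of 16 chaperone arm genes (43.8%), namely Calr, Creld2, Dnajc3, Hsp90b1, Hspa5, Pdia6 and Syvn1, and in 0 of 15 ATF4 arm genes. Among all 27025 genes with a window the share was 0.137%. ERSE-II was found in 2 of 16 chaperone arm genes (12.5%), Dnajb11 and Herpud1, and in 0.0444% of all genes with a window. The composite element lay in 4 of 15 ATF4 arm genes (26.7%), Asns, Atf3, Chac1 and Trib3, and in 1 of 16 chaperone arm genes (6.25%), Herpud1. Its share of all genes with a window was 4.51%. A match describes letters in the window and was not tested for binding.

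The 250 bases before the start of 5 of these genes are printed 5′ to 3′ on the gene's own strand, as examples of windows with matches. Herpud1 among them carries elements of both arms. Matches are in capitals and the rest in lower case. They are Hspa5 (chr2:34771840-34772089, plus strand; ERSE beginning 65 bases before the start), Hsp90b1 (chr10:86705445-86705694, minus strand; ERSE at 212 and, in the opposite orientation, at 107 bases before the start), Herpud1 (chr8:94386179-94386428, plus strand; ERSE-II at 52 and the composite element at 112), Atf3 (chr1:191183334-191183583, minus strand; composite element at 110) and Asns (chr6:7693210-7693459, minus strand; composite element at 23).
Hspa5: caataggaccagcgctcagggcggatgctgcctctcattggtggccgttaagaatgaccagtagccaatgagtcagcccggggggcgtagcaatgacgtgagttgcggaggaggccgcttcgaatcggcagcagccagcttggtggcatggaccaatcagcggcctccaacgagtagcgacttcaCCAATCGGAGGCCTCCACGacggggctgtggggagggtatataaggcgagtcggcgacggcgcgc
Hsp90b1: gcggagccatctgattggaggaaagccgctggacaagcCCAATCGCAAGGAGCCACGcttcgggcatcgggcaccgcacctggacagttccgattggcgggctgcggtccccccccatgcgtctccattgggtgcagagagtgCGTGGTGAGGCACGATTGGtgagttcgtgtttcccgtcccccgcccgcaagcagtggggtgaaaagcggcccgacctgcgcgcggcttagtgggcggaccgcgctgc
Herpud1: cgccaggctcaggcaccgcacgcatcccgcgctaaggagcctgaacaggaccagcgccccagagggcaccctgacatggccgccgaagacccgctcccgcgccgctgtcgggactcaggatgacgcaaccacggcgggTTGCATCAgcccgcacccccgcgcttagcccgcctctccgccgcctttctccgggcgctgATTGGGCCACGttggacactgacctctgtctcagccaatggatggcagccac
Atf3: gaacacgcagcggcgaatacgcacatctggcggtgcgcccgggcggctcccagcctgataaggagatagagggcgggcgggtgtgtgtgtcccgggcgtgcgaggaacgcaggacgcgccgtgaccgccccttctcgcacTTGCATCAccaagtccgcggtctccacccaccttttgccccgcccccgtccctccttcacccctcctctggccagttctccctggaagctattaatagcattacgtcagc
Asns: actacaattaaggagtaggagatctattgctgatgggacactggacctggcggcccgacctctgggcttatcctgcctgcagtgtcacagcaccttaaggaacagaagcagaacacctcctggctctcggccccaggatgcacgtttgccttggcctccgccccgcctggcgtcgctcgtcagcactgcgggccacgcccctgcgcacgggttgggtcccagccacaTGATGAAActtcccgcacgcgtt

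In WT lung 15 of the 34 members rose at 120 ppm, among them Psat1, Atf3 and Edem1, and 2, Phgdh and Herpud1, fell; the other 17 did not pass. By arm, 8 of 15 ATF4 arm genes rose and 1 fell, and 7 of 19 chaperone arm genes rose and 1 fell (limma moderated test within the strain, Benjamini-Hochberg adjusted over 11406 genes, threshold 0.05). At 40 ppm the counts were 8 up and 1 down of 15, and 7 up and 1 down of 19. At 10 ppm they were 3 up and 1 down of 15, and 6 up and 1 down of 19. Over all genes tested, the share that rose was 7.67% at 10 ppm, 13.7% at 40 ppm and 14.3% at 120 ppm, and the share that fell was 4.9%, 12.4% and 9.65%. The median change of the ATF4 arm was 0.19 at 10 ppm, 0.28 at 40 ppm and 0.29 at 120 ppm, and that of the chaperone arm 0.21, 0.15 and 0.19, where the median over all genes lay between -0.01 and 0.01. The 3 comparisons use the same 5 air arrays, so they are not independent of each other.

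**Figure D1:**
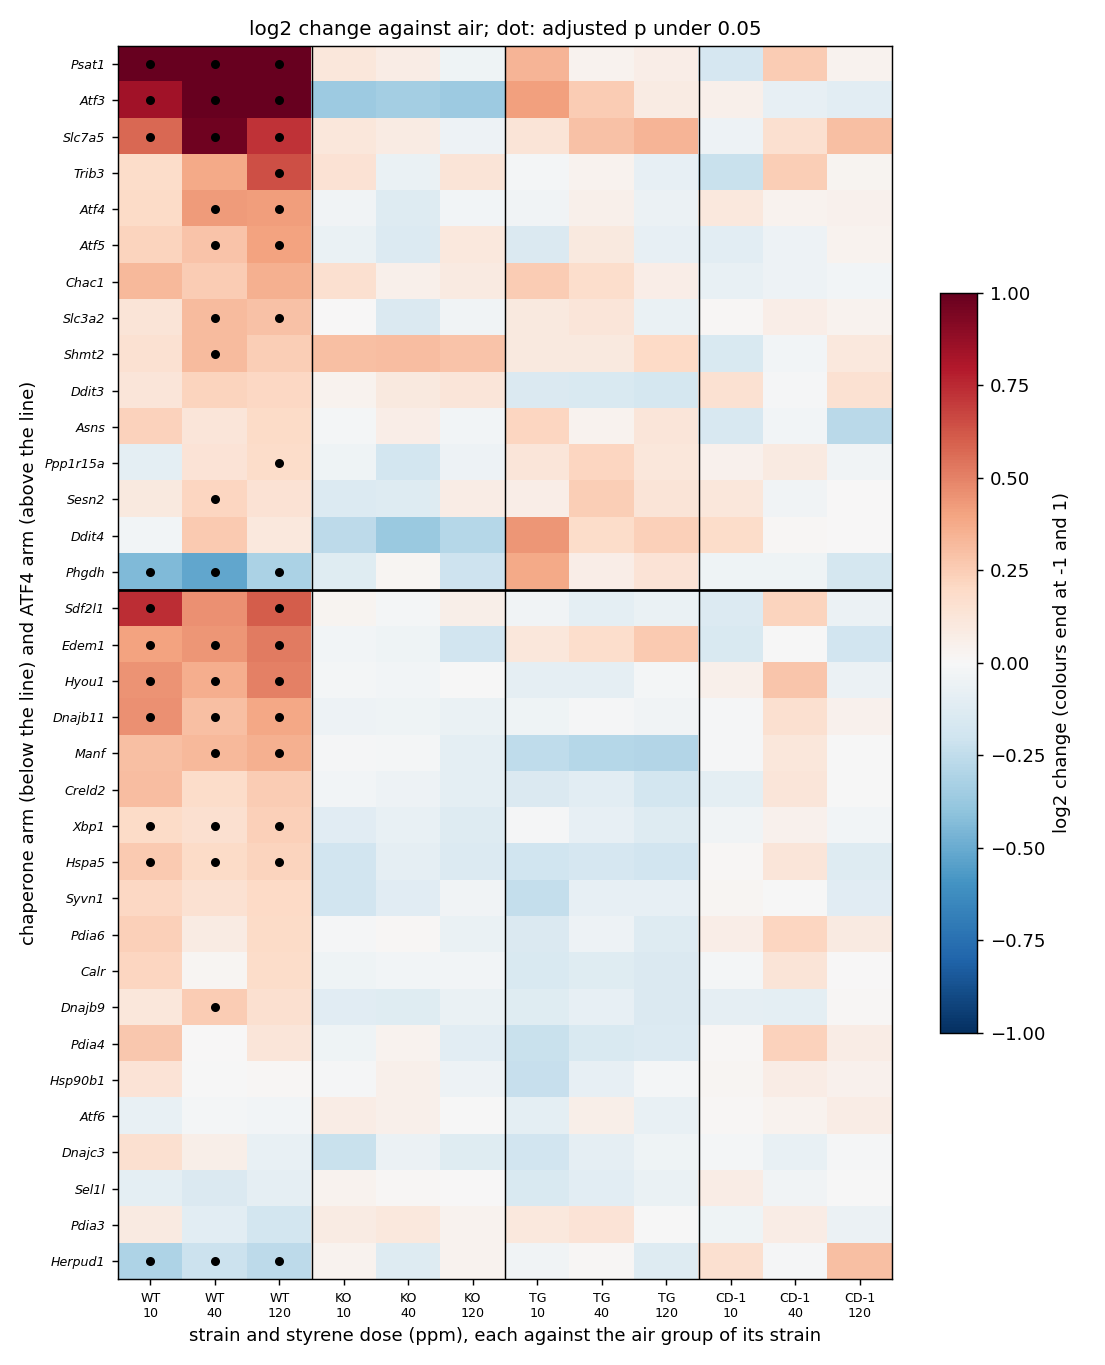
Change in log2 signal against air for the 34 genes tested (rows, by arm) in the 4 strains at 10, 40 and 120 ppm (columns); colours run from -1 to 1 and dots mark adjusted p under 0.05. Dots stand in the 3 WT columns, 11, 17 and 17 of them, and in no KO, TG or CD-1 column.

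A count that needs no model was how many genes had all 5 exposed arrays on one side of all 5 air arrays. At 120 ppm, 13 members lay wholly above air and 2 wholly below, 15 of 34 in all, against 19.9% of all genes. At 40 ppm it was 6 above and 1 below, 7 of 34, against 18.3% of all genes, which is near that background. At 10 ppm it was 8 above and 2 below, 10 of 34, against 10.2%. The lower count at 40 ppm came from the chaperone arm, where 1 of 19 genes was apart from air, while 6 of 15 ATF4 arm genes were.

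The transcription factors of the ATF4 arm were led by Atf3, a stress-induced repressor and activator of the ATF family that ATF4 is known to induce. Its WT arrays read 5.91, 5.70, 5.75, 5.64 and 5.26 in air, 6.72, 6.28, 6.23, 6.33 and 6.89 at 10 ppm, 7.06, 6.86, 7.58, 6.69 and 6.60 at 40 ppm and 6.85, 6.50, 6.75, 6.88 and 7.01 at 120 ppm. Every exposed array was above every air array. The change was 0.84 ± 0.17 (SE; adjusted p = 0.0026) at 10 ppm, 1.31 ± 0.17 (2.04e-05) at 40 ppm and 1.15 ± 0.17 (9.05e-05) at 120 ppm, the last a 2.21-fold rise. Atf4 itself, the factor that gives the arm its name, read 10.05, 10.04, 10.03, 9.97 and 10.09 in air, 10.34, 10.20, 10.12, 10.03 and 10.45 at 10 ppm, 10.39, 10.43, 10.61, 10.44 and 10.43 at 40 ppm and 10.45, 10.39, 10.52, 10.40 and 10.51 at 120 ppm. The 40 and 120 ppm arrays were all above air, and the 10 ppm arrays overlapped it. Atf4 rose by 0.43 ± 0.07 (adjusted p = 0.000138) at 40 ppm and 0.42 ± 0.07 (0.000179) at 120 ppm, a 1.34-fold change, and its change at 10 ppm was 0.19 ± 0.07 (0.0608). Atf5, a related factor under the same translational control, read 7.50, 7.40, 7.50, 7.63 and 7.83 in air and 7.71, 7.96, 8.02, 8.04 and 8.16 at 120 ppm. Air replicate 5 lay among the exposed arrays, and Atf5 rose by 0.28 ± 0.08 (0.0185) at 40 ppm and 0.41 ± 0.08 (0.00183) at 120 ppm. The call at 40 ppm was lost without WT 0 ppm replicate 2 or WT 40 ppm replicate 2, with an adjusted p of at most 0.055. Ddit3, which encodes the pro-apoptotic factor CHOP, did not pass the test at any dose (120 ppm, 0.21 ± 0.09, adjusted p = 0.116).

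The serine and amino acid synthesis genes did not move as a block. Psat1, which encodes the phosphoserine aminotransferase of serine synthesis, read 6.58, 6.24, 5.88, 6.10 and 6.02 in WT air, 7.58, 6.96, 6.82, 6.86 and 7.63 at 10 ppm, 7.56, 7.47, 7.63, 7.60 and 7.46 at 40 ppm and 7.31, 7.23, 7.39, 7.85 and 7.67 at 120 ppm. All 15 exposed arrays were above all 5 air arrays. It rose by 1.00 ± 0.16 (adjusted p = 0.000285), 1.38 ± 0.16 (6.71e-06) and 1.33 ± 0.16 (1.13e-05), folds of 2.00, 2.60 and 2.51 and the largest rise of the 34 genes at each dose. Phgdh, the enzyme one step before it in the same pathway, went the other way: 6.54, 6.36, 6.40, 6.29 and 6.32 in air, 5.99, 5.82, 5.96, 6.12 and 5.80 at 10 ppm, 6.04, 5.72, 5.90, 5.61 and 6.06 at 40 ppm and 5.97, 6.15, 6.14, 5.89 and 6.17 at 120 ppm. Its exposed arrays were all below the air arrays, and it fell by 0.44 ± 0.09 (0.0021), 0.52 ± 0.09 (0.00031) and 0.32 ± 0.09 (0.0124). Shmt2, the mitochondrial enzyme that passes serine carbon to folate, rose at 40 ppm by 0.32 ± 0.11 (0.0374) and changed by 0.25 ± 0.11 (0.106) at 120 ppm. That 40 ppm call was lost without air replicate 1 or 3 or 40 ppm replicate 2, 4 or 5 (adjusted p of at most 0.102). Asns, asparagine synthetase and the holder of the composite element printed above, read 8.07, 8.02, 7.92, 7.91 and 8.07 in air and 8.12, 8.07, 8.20, 8.15 and 8.41 at 120 ppm. The 120 ppm arrays lay just above the air arrays, and its change of 0.19 ± 0.10 did not pass (adjusted p = 0.183).

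The amino acid carriers rose together at the 2 higher doses. Slc7a5, the light chain of the LAT1 exchanger for large neutral amino acids, read 5.38, 5.31, 5.32, 5.93 and 5.98 in WT air, 6.37, 5.94, 5.90, 5.98 and 6.61 at 10 ppm, 6.35, 6.67, 7.12, 6.22 and 6.42 at 40 ppm and 6.21, 6.05, 6.47, 6.28 and 6.50 at 120 ppm. Air replicates 4 and 5 were higher than the other air arrays and overlapped the 10 ppm arrays, and the 40 and 120 ppm arrays were all above air. Its change was 0.57 ± 0.18 (adjusted p = 0.0398) at 10 ppm, 0.97 ± 0.18 (0.000656) at 40 ppm and 0.72 ± 0.18 (0.00666) at 120 ppm. The 10 ppm call was lost without air replicate 1, 2 or 3 or 10 ppm replicate 1 or 5 (at most 0.127). Slc3a2, the heavy chain that pairs with it, changed by 0.13 ± 0.07 (0.268), 0.32 ± 0.07 (0.00348) and 0.29 ± 0.07 (0.00746), with the 40 and 120 ppm arrays all above air.

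Among the stress effectors, Trib3, a pseudokinase that feeds back on ATF4, read 4.30, 4.25, 4.11, 4.64 and 4.88 in WT air, 4.55, 4.68, 5.12, 4.88 and 4.85 at 40 ppm and 4.92, 5.40, 4.85, 5.17 and 5.06 at 120 ppm. These values are near background, since Trib3 passed the level minimum of 4.28 on 37 of 80 arrays, and air replicate 5 overlapped the exposed arrays. It rose by 0.64 ± 0.14 at 120 ppm (adjusted p = 0.00302) and changed by 0.38 ± 0.14 (0.0567) at 40 ppm. Ppp1r15a, the GADD34 subunit that reverses eIF2alpha phosphorylation, rose by 0.18 ± 0.06 (0.0433) at 120 ppm, with an adjusted p of up to 0.116 on removing replicate 1, 2 or 4 of air or replicate 1, 3 or 4 of 120 ppm. Sesn2, a leucine sensor that restrains mTORC1, rose at 40 ppm by 0.21 ± 0.07 (0.0299), a call lost without replicate 1, 3 or 4 of WT 0 ppm or replicate 2, 3 or 5 of WT 40 ppm (adjusted p of at most 0.0816). Chac1, which degrades glutathione, changed by 0.35 ± 0.13 at 120 ppm (0.0637), and Ddit4, the mTORC1 inhibitor REDD1, by 0.11 ± 0.16 (0.663). Neither passed the test at 10 or 40 ppm either.

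**Figure D2:**
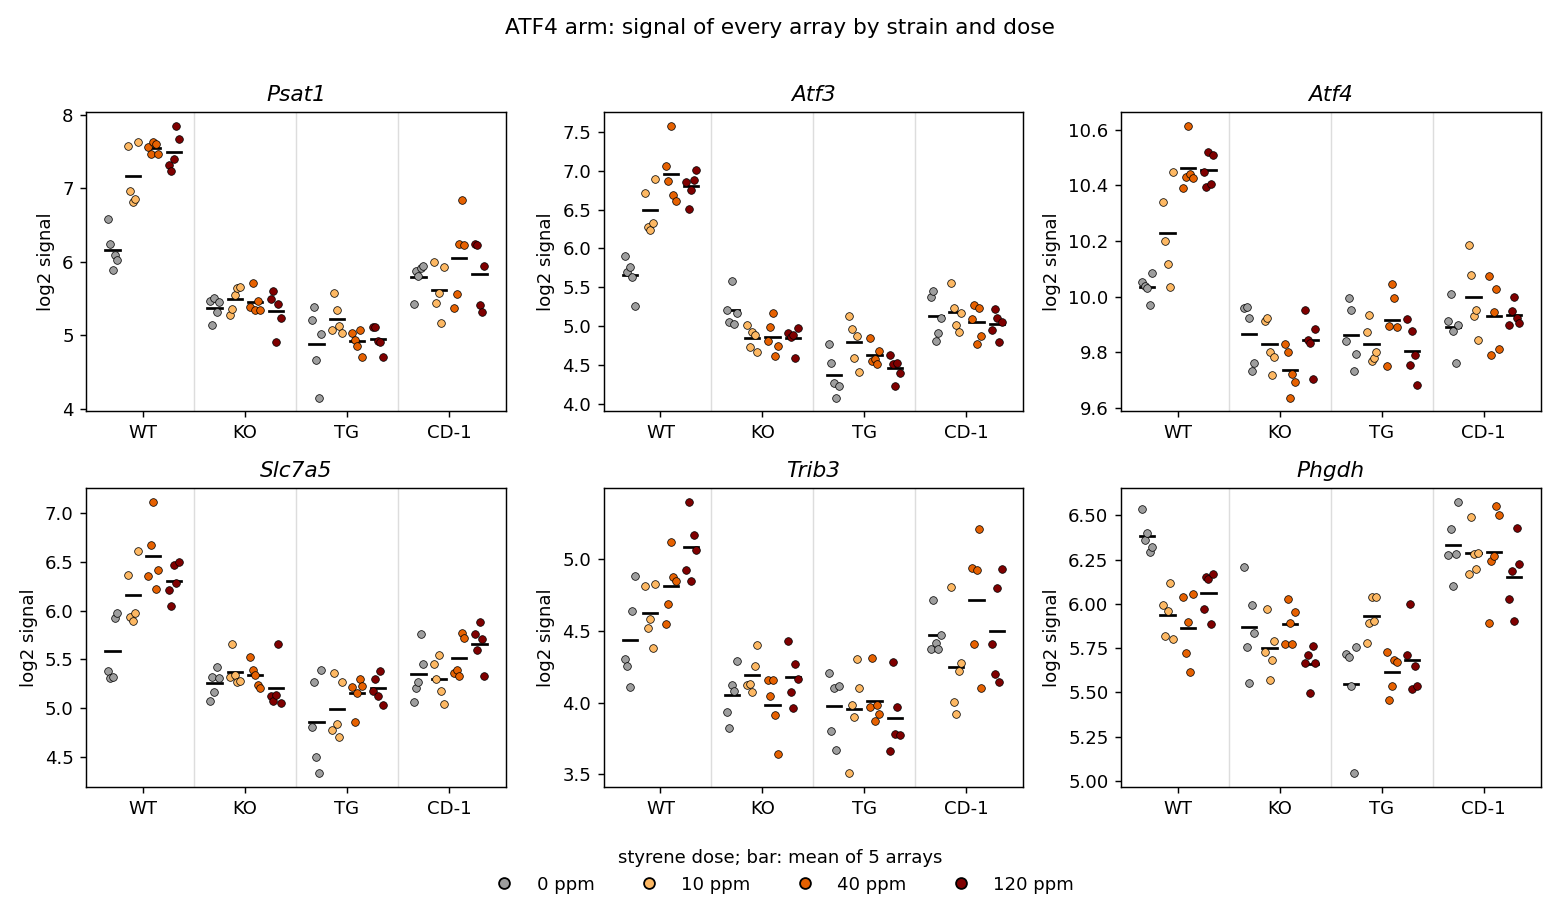
Log2 signal of 6 ATF4 arm genes on each of the 80 arrays, by strain and styrene dose; each point is 1 mouse (n = 5 per group) and bars are group means. In WT, Psat1 moves from 5.88 to 6.58 in air to 7.23 to 7.85 at 120 ppm and Phgdh moves down, while KO, TG and CD-1 points stay within or near their air range.

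In the chaperone arm the lowest adjusted p at each WT dose was that of Edem1, a lectin that hands misfolded glycoproteins to degradation and an XBP1 target. It read 7.49, 7.62, 7.48, 7.34 and 7.48 in air, 7.90, 7.82, 7.90, 7.84 and 7.97 at 10 ppm, 8.02, 7.84, 7.93, 8.02 and 7.79 at 40 ppm and 8.037, 7.899, 8.013, 8.001 and 8.051 at 120 ppm. No exposed array reached down to the air range, and Edem1 rose by 0.40 ± 0.06 (adjusted p = 7.29e-05), 0.44 ± 0.06 (2.27e-05) and 0.52 ± 0.06 (3.47e-06), the last a 1.43-fold rise. Its other probe set, with a lower mean signal of 7.07, changed by 0.10 ± 0.08 at 120 ppm (adjusted p = 0.376). With the mean of its probe sets the WT rise at 10 ppm was 0.19 and did not pass (adjusted p = 0.0503), while the calls at 40 and 120 ppm held. Herpud1, a membrane protein of the same degradation complex whose promoter carries ERSE-II, fell: 10.35, 10.30, 10.32, 10.30 and 10.55 in air, 10.10, 9.88, 10.23, 10.02 and 10.02 at 10 ppm, 10.18, 10.18, 10.33, 9.91 and 10.15 at 40 ppm and 10.10, 10.10, 10.04, 10.13 and 10.13 at 120 ppm. The 10 and 120 ppm arrays were all below air and 1 of the 40 ppm arrays was not. Herpud1 fell by 0.31 ± 0.07 (0.00805), 0.21 ± 0.07 (0.0377) and 0.26 ± 0.07 (0.0143). The 40 ppm call was lost without replicate 1, 3 or 5 of WT 0 ppm or replicate 1, 2, 4 or 5 of WT 40 ppm (adjusted p of at most 0.111). It was also lost with no filter on low signal. With 1 fit over all 80 arrays the Herpud1 calls at 10, 40 and 120 ppm were all lost (adjusted p of at most 0.109, 0.239 and 0.143). Syvn1, the ubiquitin ligase HRD1, changed by 0.20 ± 0.08 at 120 ppm (0.0906), and its partner Sel1l by -0.09 ± 0.07 (0.388).

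Of the chaperones and co-chaperones, Dnajb11, a co-chaperone of BiP with ERSE-II in its window, read 9.27, 9.40, 9.16, 9.14 and 9.38 in WT air, 9.74, 9.76, 9.71, 9.60 and 9.84 at 10 ppm, 9.78, 9.53, 9.39, 9.71 and 9.45 at 40 ppm and 9.69, 9.57, 9.69, 9.60 and 9.73 at 120 ppm. The 10 and 120 ppm arrays were all above air; 40 ppm replicate 3 fell within the air range. The rises were 0.46 ± 0.07 (adjusted p = 0.000324), 0.30 ± 0.07 (0.00576) and 0.39 ± 0.07 (0.00109). Hyou1, the large chaperone ORP150, read 8.58, 8.70, 8.56, 8.17 and 8.57 in air, 9.01, 8.89, 8.89, 8.84 and 9.19 at 10 ppm, 9.26, 8.93, 8.56, 8.87 and 8.79 at 40 ppm and 9.27, 8.94, 9.08, 8.74 and 9.08 at 120 ppm. Air replicate 4 was well below the other air arrays, and 40 ppm replicate 3 lay within the air range. Hyou1 rose by 0.45 ± 0.12 (0.0185), 0.37 ± 0.12 (0.0312) and 0.51 ± 0.12 (0.00508). The call was lost at 10 ppm without replicate 4 of WT 0 ppm or replicate 5 of WT 10 ppm (adjusted p of at most 0.0637) and at 40 ppm without replicate 4 of WT 0 ppm or replicate 1 or 2 of WT 40 ppm (up to 0.0925).

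Hspa5, the master chaperone BiP whose ERSE-bearing promoter is printed above, moved by less. Its WT arrays read 11.43, 11.40, 11.41, 11.12 and 11.46 in air, 11.66, 11.50, 11.68, 11.58 and 11.69 at 10 ppm, 11.75, 11.43, 11.40, 11.66 and 11.54 at 40 ppm and 11.63, 11.60, 11.55, 11.58 and 11.59 at 120 ppm. The 10 and 120 ppm arrays were all above air, by a small margin, and the 40 ppm arrays overlapped it. It rose by 0.26 ± 0.07 (adjusted p = 0.0203), 0.19 ± 0.07 (0.0499) and 0.23 ± 0.07 (0.0266), which is 1.17-fold at 120 ppm. At 120 ppm the call was lost without air replicate 4 or 120 ppm replicate 1 (adjusted p of at most 0.0788). At 10 ppm this held for air replicate 4 and 10 ppm replicates 1 and 5 (at most 0.0589). The 40 ppm call was lost without replicate 1, 2, 3 or 4 of WT 0 ppm or replicate 1, 4 or 5 of WT 40 ppm (up to 0.147). Sdf2l1, a luminal BiP partner, ranged widely in air (7.83, 7.94, 7.65, 7.30 and 8.63) and read 8.69, 8.49, 8.45, 8.17 and 8.56 at 120 ppm. Air replicate 5 lay above most exposed arrays, and Sdf2l1 rose by 0.74 ± 0.20 (0.0186) at 10 ppm and 0.61 ± 0.20 (0.0324) at 120 ppm. It changed by 0.46 ± 0.20 (0.0942) at 40 ppm. It lost its 120 ppm call without replicate 1, 3 or 4 of WT 0 ppm or replicate 1, 2, 3 or 5 of WT 120 ppm (up to 0.0957) and its 10 ppm call without replicate 4 of WT 0 ppm or replicate 1 or 5 of WT 10 ppm (up to 0.0581). Hsp90b1, the endoplasmic Hsp90 with 2 ERSE matches, changed by 0.14 ± 0.09, -0.00 ± 0.09 and 0.01 ± 0.09 (adjusted p = 0.33, 0.988 and 0.926). Calr, the calcium-binding chaperone calreticulin, changed by 0.21 ± 0.09, 0.02 ± 0.09 and 0.18 ± 0.09, with no call. Dnajb9, a BiP co-chaperone induced by XBP1, rose at 40 ppm (0.26 ± 0.09, adjusted p = 0.0363); the call was lost without replicate 1, 2 or 4 of WT 0 ppm or replicate 1, 2 or 4 of WT 40 ppm (up to 0.1). Dnajc3, the BiP co-chaperone p58IPK, had no call (-0.07 ± 0.07 at 120 ppm).

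The remaining chaperone arm genes were the factors, the disulfide isomerases and the luminal proteins. Xbp1, the factor downstream of IRE1, read 11.33, 11.29, 11.22, 11.22 and 11.33 in WT air, 11.53, 11.43, 11.45, 11.38 and 11.57 at 10 ppm, 11.58, 11.55, 11.34, 11.40 and 11.30 at 40 ppm and 11.48, 11.49, 11.55, 11.47 and 11.57 at 120 ppm. The 10 and 120 ppm arrays were all above air; 40 ppm replicate 5 was not. It rose by 0.19 ± 0.06 (adjusted p = 0.028), 0.16 ± 0.06 (0.0433) and 0.24 ± 0.06 (0.00533). Its 10 ppm call was lost without air replicate 3 or 4 or 10 ppm replicate 1 or 5 (adjusted p of at most 0.0876). Its 40 ppm call was lost without replicate 2, 3, 4 or 5 of WT 0 ppm or replicate 1, 2 or 4 of WT 40 ppm (up to 0.12). Neither of these 2 calls held with the mean of the Xbp1 probe sets or on median centring. The adjusted p was then at most 0.192 at 10 ppm and 0.0878 at 40 ppm, while the 120 ppm call held. The probe set measures total Xbp1 mRNA, and splicing was not measured. Atf6, the membrane-bound factor, changed by -0.03 ± 0.05 at 120 ppm (0.691), while a dimmer probe set for the gene rose by 0.27 ± 0.08 (adjusted p = 0.0249), so its direction depends on the probe set. Manf, a secreted protein that protects cells from reticulum stress, rose by 0.33 ± 0.11 (0.0411) at 40 ppm and 0.36 ± 0.11 (0.0282) at 120 ppm. Its 120 ppm call was lost without air replicate 4 or 120 ppm replicate 1 or 5 (at most 0.083). Its 40 ppm call was lost without replicate 2, 3 or 4 of WT 0 ppm or replicate 1, 2, 4 or 5 of WT 40 ppm (up to 0.121). Creld2, another secreted target of the response, changed by 0.26 ± 0.16 at 120 ppm (0.246). None of the 3 disulfide isomerases passed at any dose: at 120 ppm Pdia3 changed by -0.18 ± 0.09, Pdia4 by 0.12 ± 0.12 and Pdia6 by 0.19 ± 0.09, with adjusted p of 0.178, 0.496 and 0.158. Pdia3 was read on 1 probe set of low signal, with a mean of 4.73 over the 80 arrays beside 8.82 for Pdia4.

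**Figure D3:**
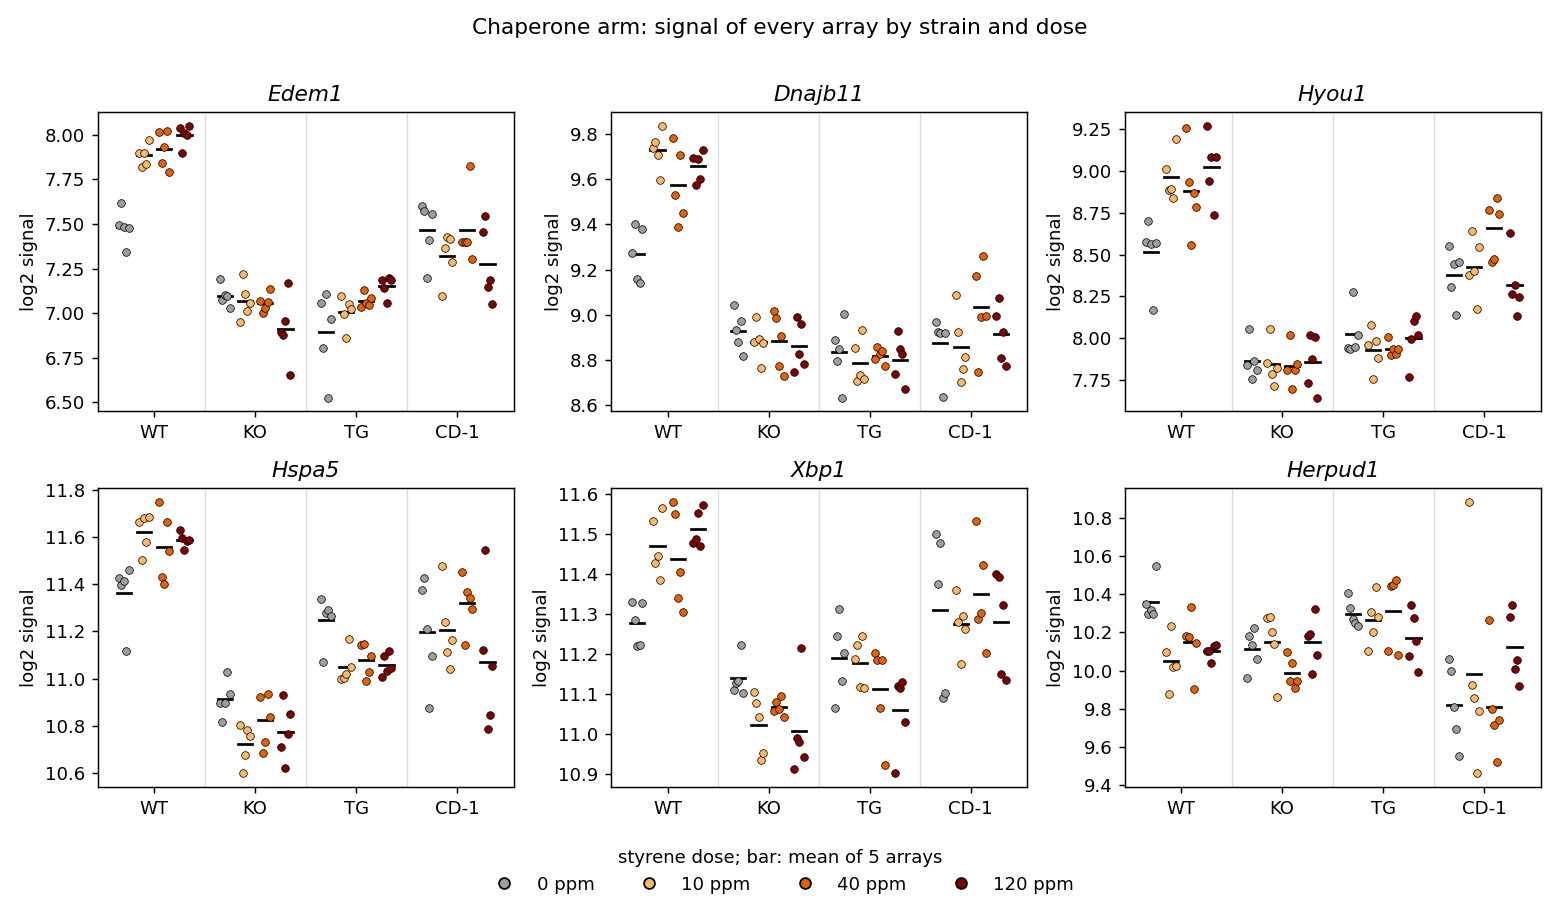
Log2 signal of 6 chaperone arm genes on each of the 80 arrays, by strain and styrene dose; each point is 1 mouse (n = 5 per group) and bars are group means. Edem1 in WT lies at 7.34 to 7.62 in air and 7.90 to 8.05 at 120 ppm, and Herpud1 is the gene of the 6 that lies lower in WT at 120 ppm than in air.

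How the 3 WT doses differed from each other was tested directly. Against 10 ppm, 120 ppm gave 1 member, Ppp1r15a, that was higher (0.28 ± 0.06, adjusted p = 0.039), where 0.903% of all genes passed. The call was lost on removing replicate 1, 3 or 4 of WT at 10 ppm or replicate 1, 3, 4 or 5 at 120 ppm (up to 0.13), and 2 members passed without WT 10 ppm replicate 5. Between 40 and 10 ppm, limma called 0 members and 0.947% of all genes. Unadjusted, 8 members and 1748 of all 11406 genes had a p under 0.05. The lowest adjusted p among the members was that of Ppp1r15a (0.0767). Without WT 10 ppm replicate 5, 2 members were called, and without WT 40 ppm replicate 1, 1 was. Between 120 and 40 ppm limma called 0 members and 0% of all genes, with 1 member and 839 of all 11406 genes at an unadjusted p under 0.05. For Psat1 the 95% interval of the difference between 120 and 10 ppm was -0.01 to 0.66, for Atf3 -0.04 to 0.66, and for Hspa5 -0.18 to 0.11, so 5 arrays per group leave room for differences between doses up to those bounds.

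Single arrays moved many members together. In WT air, replicate 5 was the highest array for 12 of 19 chaperone arm genes and for 10 of 15 ATF4 arm genes, and replicate 4 the lowest for 12 of 19 chaperone arm genes. At 10 ppm replicate 5 was highest for 13 of 19 chaperone arm genes, and at 40 ppm replicate 1 was highest for 13 and replicate 3, which is one of the arrays high in squamous genes, lowest for 11. The count at 10 ppm, 11 members, was 7 without WT 0 ppm replicate 4 or WT 10 ppm replicate 1 and 6 without WT 10 ppm replicate 5. At 40 ppm the 17 members became 11 with no filter on low signal or with 1 fit over all 80 arrays, 11 without WT 0 ppm replicate 3 or WT 40 ppm replicate 4 and 9 without WT 40 ppm replicate 2. Leaving out the 3 arrays high in squamous genes gave 10 members at 10 ppm, 14 at 40 ppm and 17 at 120 ppm. In that fit Ddit3 rose at 40 ppm (0.34, adjusted p = 0.0115) and at 120 ppm (0.26, 0.0326), Slc7a5 missed the threshold at 10 ppm (0.0501), Ppp1r15a at 120 ppm (0.0684), and Atf5, Dnajb9, Sesn2 and Shmt2 at 40 ppm.

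With all arrays, 14 of the 34 genes had more than 1 probe set above the level minimum. At 120 ppm the change had the same sign on every such set for 10 of the 14, at 40 ppm for 12 and at 10 ppm for 11, and in no case were sets of one gene called in opposite directions.

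Other genes of the same pathways, from lists that do not overlap the members, are read beside the 14.3% of all genes that rose and the 9.65% that fell in WT at 120 ppm. Of 24 listed tRNA synthetase genes, which charge tRNAs and many of which are ATF4 targets, 10 were tested; 4 rose at 10 ppm, 7 at 40 ppm and 6 at 120 ppm, and 0 fell. Aars, for alanine, rose by 0.45 ± 0.07 at 120 ppm (adjusted p = 0.000105), Mars1, for methionine, by 0.41 ± 0.08 (0.00112), and Wars, for tryptophan, by 0.37 ± 0.08 (0.00273). The list's median change at 120 ppm was 0.24, and its 6 of 10 genes up were above the share of all genes. Of 21 other ATF4 targets 13 were tested, and 3 rose and 1 fell at 120 ppm with a median of 0.03, which for 13 genes is near the shares of all genes. The mitochondrial folate enzyme Mthfd1l rose by 0.44 ± 0.10 (0.00462), the translation repressor Eif4ebp1 by 0.25 ± 0.07 (0.0122) and the cationic amino acid carrier Slc7a1 by 0.33 ± 0.10 (0.0245), while the lipoprotein receptor Vldlr fell by 0.33 ± 0.11 (0.0436). Of 29 other genes of folding and degradation 23 were tested, and 4 rose and 0 fell at 120 ppm with a median of 0.05, also near those shares, among them the translocon subunit Sec61a1 (0.34 ± 0.06, 0.000229) and the disulfide isomerase P4hb (0.22 ± 0.06, 0.0119). Of 9 sensors and eIF2alpha kinases 7 were tested, and 1 rose and 1 fell at 120 ppm. Eif2ak2, the double-stranded RNA kinase PKR and an interferon-induced gene, rose by 1.29 ± 0.16 (1.78e-05) at 10 ppm, 0.97 ± 0.16 (0.000284) at 40 ppm and 1.05 ± 0.16 (0.000135) at 120 ppm. Mbtps2, a protease that activates ATF6, fell by 0.21 ± 0.07 at 120 ppm (0.0288). The median change of the tRNA synthetase genes at 120 ppm was -0.049 for KO, 0.085 for TG and 0.0041 for CD-1.

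Markers of other cells were read in the same WT arrays. Over all genes, 7.67%, 13.7% and 14.3% rose at 10, 40 and 120 ppm, and 4.9%, 12.4% and 9.65% fell. Of the 7 club cell markers 4 fell at 10 ppm, 6 at 40 ppm and 4 at 120 ppm. Their summed log2 level was 15.7 to 15.9 in air, 15.4 to 15.7 at 10 ppm, 15.2 to 15.6 at 40 ppm and 15.3 to 15.6 at 120 ppm. Within KO the same sum was 15.5 to 15.6 both in air and at 120 ppm, which cannot be set against the WT levels because the strains' scales differ. Of 4 ciliated cell markers tested 1 fell at 10 ppm, 2 at 40 ppm and 3 at 120 ppm, with a summed level of 11.8 to 11.9 in air and 11.1 to 11.5 at 120 ppm. Of 4 alveolar type 2 markers 1 rose at each dose, at 120 ppm Sftpd (0.27 ± 0.06, adjusted p = 0.00386), and their summed level was 14.92 to 14.98 in air and 14.99 to 15.07 at 120 ppm, without overlap. Of 5 fibroblast markers Col1a2 rose (0.37 ± 0.11, 0.0158) and Dcn fell (-0.77 ± 0.23, 0.0212) at 120 ppm, and the summed level was 11.15 to 11.30 in air and 10.27 to 11.14 at 120 ppm. At 120 ppm 1 of 4 alveolar type 1 markers rose and 1 of 5 macrophage markers fell, and at 40 ppm 2 of 5 goblet cell markers and 1 of 5 endothelial markers fell. For lists of 4 or 5 genes, a single call is near the shares of all genes. Plasma cells hold much Xbp1 and many chaperones. Their summed level is nearly all Xbp1, itself a member, so the other markers are given singly. Jchain ranged from 5.89 to 6.63 in air and from 6.09 to 6.64 at 120 ppm, Derl3 from 4.33 to 7.22 and from 4.67 to 5.02, and Tnfrsf17 stayed below the level minimum (WT group means 3.24 to 3.45). The 3 B cell markers tested changed by 0.42 to 0.59 at 120 ppm and the 4 neutrophil markers by 0.078 to 0.15, with no call. The part of these cell types in the members' changes was not tested.

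In the other strains no member passed the test at any dose. In KO, limma called 0 of 34 members at 10, 40 and 120 ppm and 0% of all genes. At an unadjusted p under 0.05 there were 5, 3 and 6 members, beside 649, 564 and 596 of all 11406 genes. In TG it called 0 members at each dose, against 0%, 0% and 0.0701% of all genes. Unadjusted, 10, 2 and 3 members had a p under 0.05, beside 1579, 867 and 1439 of all 11406 genes. In 1 fit over all 80 arrays 1 member was called in TG at 10 ppm. In CD-1 it called 0 members, against 0%, 0.00877% and 0.0175% of all genes. Unadjusted, 0, 3 and 2 members had a p under 0.05, beside 272, 442 and 597 of all 11406 genes.

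In KO at 120 ppm Psat1, Atf3, Edem1 and Hspa5, which rose in WT, had changes below 0, and Shmt2, which rose in WT at 40 ppm, had changes above 0 at each dose. Psat1 in KO read 5.46, 5.14, 5.51, 5.32 and 5.45 in air and 5.50, 5.59, 4.91, 5.43 and 5.23 at 120 ppm. The groups overlapped, and the change was -0.04 ± 0.11 (95% interval -0.28 to 0.19). Atf3 in KO read 5.21, 5.05, 5.57, 5.03 and 5.17 in air, 5.01, 4.73, 4.93, 4.88 and 4.67 at 10 ppm, 4.81, 4.99, 5.16, 4.62 and 4.74 at 40 ppm and 4.91, 4.86, 4.89, 4.59 and 4.97 at 120 ppm. At 10 and 120 ppm all exposed arrays were below the air arrays, the opposite side from WT, with changes of -0.36 ± 0.11, -0.34 ± 0.11 and -0.36 ± 0.11 that did not pass over all genes (adjusted p = 0.562, 0.988 and 0.837). Ddit4 changed in KO by -0.26 ± 0.10, -0.37 ± 0.10 and -0.28 ± 0.10, and Shmt2 by 0.30 ± 0.12, 0.31 ± 0.12 and 0.28 ± 0.12, also without passing. Edem1 in KO read 7.19, 7.07, 7.10, 7.10 and 7.03 in air and 6.89, 6.88, 6.95, 7.17 and 6.65 at 120 ppm. Replicate 4 lay within the air range and the other exposed arrays below it, and the change was -0.19 ± 0.07 (95% interval -0.34 to -0.04, adjusted p = 0.894). Hspa5 changed by -0.19 ± 0.07, -0.09 ± 0.07 and -0.14 ± 0.07; at 10 ppm its arrays were all below the air arrays.

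In TG the chaperone arm leaned down while all genes leaned slightly up. The arm's median change was -0.14 at 10 ppm, -0.08 at 40 ppm and -0.08 at 120 ppm, with 2, 4 and 1 of 19 genes above 0, beside medians of 0.06, 0.05 and 0.06 over all genes. TG 0 ppm replicate 4 had the lowest array median of the strain, 3.84, beside 4.07 to 4.13 on the other TG air arrays. It was the lowest air array for 10 of 15 ATF4 arm genes. A low air array raises the changes over all genes, and its part in their upward lean was not tested. Manf changed by -0.26 ± 0.09, -0.29 ± 0.09 and -0.29 ± 0.09 and Hspa5 by -0.20 ± 0.06, -0.17 ± 0.06 and -0.19 ± 0.06, with adjusted p at 120 ppm of 0.21 and 0.233. The ATF4 arm genes nearest to the threshold in TG were Atf3 (0.41 ± 0.13, adjusted p = 0.234) and Phgdh (0.38 ± 0.12, 0.234) at 10 ppm. Phgdh read 5.72, 5.70, 5.53, 5.04 and 5.76 in TG air and 5.78, 5.89, 6.04, 5.91 and 6.04 at 10 ppm, so that all exposed arrays were above air where in WT they were below it. Psat1 in TG read 5.20, 5.38, 4.66, 4.15 and 5.02 in air and 5.11, 5.10, 4.92, 4.91 and 4.71 at 120 ppm, which overlap, with a change of 0.07 ± 0.17 (95% interval -0.29 to 0.42).

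CD-1 mice also gave no member past the threshold. Psat1 read 5.42, 5.88, 5.81, 5.91 and 5.94 in CD-1 air and 6.24, 6.23, 5.40, 5.32 and 5.95 at 120 ppm. The groups overlapped and the spread was wider than in WT, with a change of 0.04 ± 0.25 (95% interval -0.48 to 0.55). Atf3 read 5.38, 5.46, 4.80, 4.91 and 5.10 in air and 4.95, 5.22, 5.11, 4.79 and 5.06 at 120 ppm, again overlapping (-0.10 ± 0.14). At 120 ppm the largest differences of the ATF4 arm were Slc7a5 (0.30 ± 0.14, adjusted p = 0.921) and Asns (-0.27 ± 0.10, 0.792), and those of the chaperone arm Herpud1 (0.30 ± 0.20, 1) and Edem1 (-0.19 ± 0.11, 1). Herpud1 read 10.06, 10.00, 9.81, 9.69 and 9.55 in CD-1 air and 10.28, 10.35, 10.01, 10.06 and 9.92 at 120 ppm, where 2 of the 5 exposed arrays were above the highest air array. Arrays again moved members together: replicate 1 was highest for 14 of 19 chaperone arm genes at 10 ppm and replicate 2 for 14 at 120 ppm, and replicate 4 was lowest for 12 in air, 10 at 10 ppm and 10 at 120 ppm.

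Whether a strain responded differently from WT was tested as the difference of the changes (limma, 20 arrays: both strains in air and at 1 dose). A negative value means a lower response than in WT. At 120 ppm KO differed in 12 of 34 members, TG in 10 and CD-1 in 7, where 13.3%, 8.33% and 6.55% of all genes did. By arm, KO gave 5 lower of the ATF4 arm and 6 lower and 1 higher of the chaperone arm, TG 5 lower and 5 lower, and CD-1 4 lower, and 2 lower and 1 higher. At 40 ppm KO differed in 13 members (12 lower, 1 higher), TG in 6 (5 lower, 1 higher) and CD-1 in 2, both lower (13.5%, 8.37% and 1.68% of all genes). At 10 ppm the numbers were 8 for KO, all lower, 5 for TG (4 lower, 1 higher) and 3 for CD-1, all lower (6.32%, 3.79% and 2.08%). All of these tests use the same WT arrays, and in each of them WT is the strain in which the members were called.

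Atf3 and Psat1 had the widest gaps at 120 ppm. For Atf3 the response minus that of WT was -1.51 ± 0.17 in KO (adjusted p = 3.45e-06), -1.06 ± 0.18 in TG (0.000932) and -1.25 ± 0.19 in CD-1 (0.000588). For Psat1 it was -1.37 ± 0.20 for KO (8.83e-05), -1.26 ± 0.26 for TG (0.00395) and -1.29 ± 0.26 for CD-1 (0.00529). Each of these calls held when any 1 of the 20 arrays was left out. The differences of Atf4 were -0.44 ± 0.08 for KO (0.000885), -0.48 ± 0.09 for TG (0.00137) and -0.38 ± 0.07 for CD-1 (0.00284). These 3 Atf4 calls did not hold when both of its probe sets were averaged: the difference in KO was then -0.04 (adjusted p = 0.801), and p was 0.0733 in TG and 0.0617 in CD-1. The second probe set is below the level minimum. Among the amino acid genes Slc7a5 differed in KO (-0.77 ± 0.20, 0.0137), Slc3a2 in KO (-0.33 ± 0.10, 0.0335) and Asns in CD-1 (-0.46 ± 0.11, 0.0187), although Asns was not called in either strain alone. Phgdh, which fell in WT, was the higher member at the lower doses, with 0.83 ± 0.15 (0.00255) for TG at 10 ppm and 0.53 ± 0.15 (0.0212) for KO and 0.58 ± 0.16 (0.0325) for TG at 40 ppm.

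In the chaperone arm, Edem1 responded less than in WT, with a difference of -0.71 ± 0.10 in KO (adjusted p = 8.23e-05) and -0.71 ± 0.13 in CD-1 (0.00272) at 120 ppm. In TG its difference was -0.26 ± 0.12 (0.217; 95% interval -0.51 to -0.00), which did not pass. Dnajb11 differed by -0.45 ± 0.09 in KO (0.00251) and -0.42 ± 0.11 in TG (0.0152), and in CD-1 by -0.35 ± 0.11 (0.0562). Hspa5 differed by -0.36 ± 0.09 in KO (0.0131) and -0.41 ± 0.09 in TG (0.007), and its interval in CD-1 was -0.71 to 0.00. Manf and Xbp1 were lower in KO (-0.46 and -0.37) and in TG (-0.65 and -0.37), and Hyou1 in KO, TG and CD-1 (-0.51, -0.53 and -0.57). Herpud1 was the member that differed upward at 120 ppm, by 0.30 ± 0.09 in KO (0.0386) and 0.56 ± 0.13 in CD-1 (0.0142). The KO call was lost with no filter on low signal, with 1 fit over all 80 arrays and with replicate number in the fit (adjusted p up to 0.338). Without the arrays high in squamous genes its adjusted p was 0.0519. On leaving out 1 of the 20 arrays, Herpud1 in KO (12 arrays, adjusted p up to 0.0721), Slc3a2 in KO (8 arrays, 0.0658), Hyou1 in TG (6 arrays, 0.0729) and in CD-1 (13 arrays, 0.0789), and Trib3 (12 arrays, 0.0771) and Atf5 (15 arrays, 0.0882) in TG could lose their calls at 120 ppm, and no other member did.

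**Figure D4:**
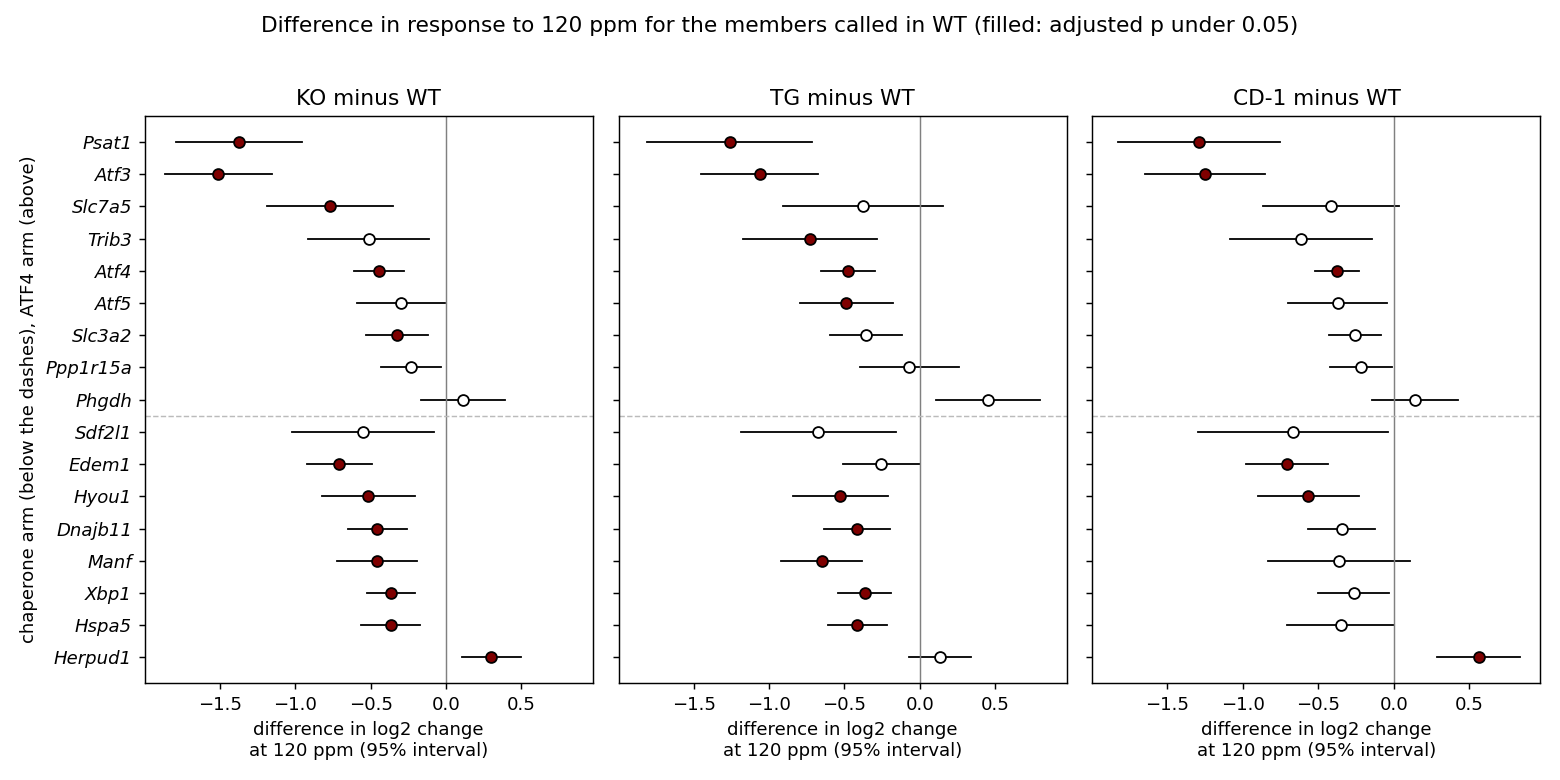
Difference in log2 response to 120 ppm styrene between KO, TG or CD-1 and WT (strain minus WT) for the 17 members called in WT at that dose, with 95% intervals; filled points have an adjusted p under 0.05. Most points lie left of 0, the farthest for Atf3 and Psat1, and Herpud1 and Phgdh lie to the right. The 17 members were chosen for their change in these same WT arrays, which favours the side of 0 opposite to that change.

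Values at the lower doses follow for some of the members with a low p. At 10 ppm the lowest adjusted p was that of Atf3 in KO (-1.20 ± 0.19, 0.000467), Phgdh in TG (0.83 ± 0.15, 0.00255) and Edem1 in CD-1 (-0.55 ± 0.11, 0.00813). That Edem1 call did not hold with the mean of its probe sets (0.281). At 40 ppm Psat1 differed by -1.31 ± 0.15 in KO and -1.34 ± 0.24 in TG, and Atf3 by -1.65 ± 0.23 for KO, -1.05 ± 0.23 for TG and -1.39 ± 0.24 for CD-1 (adjusted p = 6.27e-05, 0.00578 and 0.00504). At 10 ppm Dnajb11 differed by -0.51 ± 0.09 for KO (0.00149), -0.50 ± 0.11 for TG (0.00828) and -0.47 ± 0.12 for CD-1 (0.0324), and Hspa5 by -0.45 ± 0.09 in KO (0.00494) and -0.46 ± 0.10 in TG (0.00948). These counts moved with single arrays in 3 cases. The 5 members that differed in TG at 10 ppm became 8 without TG 0 ppm replicate 2 and 3 without TG 0 ppm replicate 3, TG 10 ppm replicate 3 or 5, or WT 10 ppm replicate 1 or 5. The 13 in KO at 40 ppm became 8 without KO 0 ppm replicate 2, KO 40 ppm replicate 4, WT 0 ppm replicate 1 or 3 or WT 40 ppm replicate 2. The 2 in CD-1 at 40 ppm, Atf3 and Atf4, became 1 without CD-1 0 ppm replicate 2, CD-1 40 ppm replicate 2, 3 or 5, WT 0 ppm replicate 2, 3, 4 or 5 or WT 40 ppm replicate 2, 3 or 4, and 5 without CD-1 40 ppm replicate 4. When the 3 arrays high in squamous genes were left out, KO, TG and CD-1 had 11, 9 and 8 members called at 120 ppm, 11, 7 and 1 at 40 ppm, and 8, 5 and 3 at 10 ppm.

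Strains already differed in air. After median centring, 2 members differed from WT in KO (1 higher, 1 lower), 15 in TG (11 higher, 4 lower) and 9 in CD-1 (5 higher, 4 lower), where 12.7%, 35.3% and 31.7% of all genes did. On deposited values 28 were called in KO and 24 in TG, each of them lower, and CD-1 had 1 higher and 15 lower. As deposited, values of all genes were shifted by a median of -0.36, -0.48 and -0.23 against WT, and the direction of several members turned with the scaling. Xbp1, for example, was higher in TG by 0.40 on centred values and at -0.087 on deposited ones, Herpud1 by 0.42 and at -0.064, Sel1l by 0.35 and at -0.13, and Atf4 in KO by 0.20 and at -0.17. Therefore the calls that held on centred, quantile-normalized and deposited values alike are singled out. Because the deposited values are shifted down against WT, this rule passes lower calls more readily than higher ones. Atf5 in TG, for example, stood at 0.68 on centred and 0.67 on quantile-normalized values (adjusted p = 0.00027 and 0.000157). On deposited values it stood at 0.20 (0.0959), so it is not among them. Relative to WT, on the centred log2 scale, Shmt2 stood at -0.57 in KO and -0.60 in TG. Psat1 stood at -0.80, Atf3 at -0.79 and Phgdh at -0.35 in TG. In CD-1 Chac1 stood at 1.12, Pdia3 at -0.40, Pdia6 at -0.39 and Herpud1 at -0.30. The Pdia3 probe set is near the level minimum, with a mean of 4.73 over the 80 arrays. Without the 3 arrays high in squamous genes the adjusted p was 0.0781 for Herpud1 and 0.0641 for Pdia6 in CD-1 and 0.0549 for Phgdh in TG, and the counts were 1 for KO, 15 for TG and 5 for CD-1. The KO count was 1 without any of KO 0 ppm replicates 1, 2 and 5 or WT 0 ppm replicates 1, 2 and 3, and 4 without WT 0 ppm replicate 4.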

How the data were processed

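Total lung RNA was measured on 80 arrays, 5 mice in each of 16 groups; the labels call the 5 biological replicates. The deposited values are log2 signals of 45037 probe sets, made with RMA in Partek per the submitters' processing notes (versions not given), so background correction and quantile normalization are the authors'; no source used here says whether RMA was run per strain. The number of arrays limits the precision. Probe sets were named from the platform annotation (28898 with 1 symbol, 551 with several, 15588 not listed), and 17097 genes kept the probe set of highest mean. Genes above 4.28, the median of all values, on at least 5 arrays were tested (11406).

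Each strain was fitted alone with limma 3.58.1 in R 4.3.3 on its 20 arrays (16 residual degrees of freedom), with Benjamini-Hochberg adjustment over all genes tested; response differences used the 20 arrays of 2 strains in air and at 1 dose. Strains in air were compared after median centring. Replicate numbers did not pair the mice across doses (mean correlation of same-numbered arrays -0.00118 in WT, range over all strains -0.52 to 0.45). Squamous and other marker lists, pathway lists and members were chosen with earlier results of these data known. Array values are given for the 5 members of each arm with the lowest p in WT at 120 ppm and for the largest rise and fall of each arm in CD-1 at 120 ppm; in each other comparison with calls the 3 members of each arm with the lowest p are named, and up to 3 genes of each pathway list. Array values of Phgdh, Hspa5 and Sdf2l1 and genes named beyond this rule were added after values were seen. Figures were drawn with matplotlib 3.10.9 in Python 3.11.15. Promoter windows came from RefSeq (GRCm38.p6); those of Slc7a5, Atf6, Hyou1 and Manf were not used here.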

Additional observations from a re-analysis of the deposited data

Results flagged for a closer look

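For 12 genes, each in 16 groups of 5, 15 of 192 gene-by-group sets had an array whose gap to its nearest neighbour was over 0.71 of the range. Chance gives about 1 in 20. The genes were Psat1, Atf3, Atf4, Atf5, Trib3, Slc7a5, Asns, Edem1, Dnajb11, Hyou1, Xbp1 and Herpud1. Phgdh and Hspa5, which are plotted by array, were not screened. For Edem1, CD-1 40 ppm replicate 4 was the highest at 7.83 (the other 4 at 7.31 to 7.40). For Dnajb11, CD-1 0 ppm replicate 4 was the lowest at 8.64 (the other 4 at 8.92 to 8.97). For Hyou1, TG 0 ppm replicate 3 was the highest at 8.27 (the other 4 at 7.94 to 8.02) and WT 0 ppm replicate 4 was the lowest at 8.17 (the other 4 at 8.56 to 8.70). For Xbp1, KO 0 ppm replicate 4 was the highest at 11.22 (the other 4 at 11.10 to 11.13) and KO 120 ppm replicate 4 was the highest at 11.21 (the other 4 at 10.91 to 10.99). For Herpud1, WT 0 ppm replicate 5 was the highest at 10.55 (the other 4 at 10.30 to 10.35). For Psat1, CD-1 0 ppm replicate 1 was the lowest at 5.42 (the other 4 at 5.81 to 5.94). For Atf4, WT 40 ppm replicate 3 was the highest at 10.61 (the other 4 at 10.39 to 10.44). For Trib3, CD-1 0 ppm replicate 2 was the highest at 4.71 (the other 4 at 4.37 to 4.47) and TG 40 ppm replicate 2 was the highest at 4.31 (the other 4 at 3.87 to 3.99). For Slc7a5, KO 10 ppm replicate 2 was the highest at 5.65 (the other 4 at 5.27 to 5.34) and KO 120 ppm replicate 4 was the highest at 5.65 (the other 4 at 5.05 to 5.14). For Asns, CD-1 40 ppm replicate 4 was the highest at 8.14 (the other 4 at 7.54 to 7.71) and KO 0 ppm replicate 4 was the highest at 7.81 (the other 4 at 7.48 to 7.57). CD-1 0 ppm replicate 4 (Dnajb11) and WT 40 ppm replicate 3 (Atf4) are arrays high in squamous genes. The part of that in these values was not tested.

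Several members responded differently from WT by the test of the difference itself (limma, adjusted over all genes). At 40 and 10 ppm the lists hold at most the 3 members of each arm with the lowest p. In KO at 120 ppm the log2 change minus that of WT was Atf3 -1.51, Psat1 -1.37, Slc7a5 -0.77, Edem1 -0.71, Hyou1 -0.51, Manf -0.46, Dnajb11 -0.45, Atf4 -0.44, Xbp1 -0.37, Hspa5 -0.36, Slc3a2 -0.33 and Herpud1 0.30. In TG at 120 ppm the log2 change minus that of WT was Psat1 -1.26, Atf3 -1.06, Trib3 -0.73, Manf -0.65, Hyou1 -0.53, Atf5 -0.49, Atf4 -0.48, Dnajb11 -0.42, Hspa5 -0.41 and Xbp1 -0.37. In CD-1 at 120 ppm the log2 change minus that of WT was Psat1 -1.29, Atf3 -1.25, Edem1 -0.71, Hyou1 -0.57, Asns -0.46, Atf4 -0.38 and Herpud1 0.56. In KO at 40 ppm the log2 change minus that of WT was Atf3 -1.65, Psat1 -1.31, Atf4 -0.56, Edem1 -0.48, Dnajb9 -0.38 and Dnajb11 -0.35. In TG at 40 ppm the log2 change minus that of WT was Psat1 -1.34, Atf3 -1.05, Manf -0.61, Atf4 -0.37 and Hspa5 -0.36. In CD-1 at 40 ppm the log2 change minus that of WT was Atf3 -1.39 and Atf4 -0.39. In KO at 10 ppm the log2 change minus that of WT was Atf3 -1.20, Psat1 -0.89, Dnajb11 -0.51, Hspa5 -0.45 and Edem1 -0.43. In TG at 10 ppm the log2 change minus that of WT was Hyou1 -0.54, Dnajb11 -0.50, Hspa5 -0.46 and Phgdh 0.83. In CD-1 at 10 ppm the log2 change minus that of WT was Psat1 -1.17, Edem1 -0.55 and Dnajb11 -0.47. At 40 ppm the 1 higher member was Phgdh, at 0.53 in KO and 0.58 in TG. With the mean of probe sets the Edem1 differences at 10 ppm were -0.22 in KO (adjusted p = 0.143) and -0.24 in CD-1 (0.281). Averaged in the same way, the Atf4 differences at 40 ppm, like those at 120 ppm, lost their calls. At 40 ppm the adjusted p was then 0.113 in KO, 0.0968 in TG and at most 0.0724 in CD-1. The CD-1 call at 40 ppm was also lost without the arrays high in squamous genes (0.0682). Negative values stand for a smaller rise than in WT, a larger fall, or a fall where WT rose. All of these comparisons share the WT arrays.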

How the results depend on the processing

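Of the 17 members called in WT at 120 ppm, 14 to 17 kept their call under each alternative on all genes, and 14 of the 14 that passed a 75th percentile filter did; none reversed. With no filter on low signal, 11 members were called in WT at 40 ppm (17 in the report), 0 in WT at 120 against 10 ppm (1) and 8 for KO minus WT at 40 ppm (13). With 1 fit over all 80 arrays the counts were 1 for TG at 10 ppm (0), 11 for WT at 40 ppm (17), 1 for WT 40 against 10 ppm (0), 0 for WT 120 against 10 ppm (1), 8 for TG minus WT (5) and 5 for CD-1 minus WT (3) at 10 ppm, 5 for CD-1 minus WT at 40 ppm (2) and 5 for KO in air (2). Trend and robust variance gave 9 for TG minus WT at 10 ppm (5). Averaging probe sets gave 1 for CD-1 minus WT at 40 ppm (2) and 0 for KO in air (2), and testing every probe set 0 for WT 120 against 10 ppm (1) and 5 for KO in air (2). Median centring gave 0 for WT 120 against 10 ppm (1). With the replicate block the counts were 0 for WT 120 against 10 ppm (1), 1 for CD-1 minus WT at 40 ppm (2) and 1 for KO in air (2); the block moved no other count by over 1.5 times. Without the arrays high in squamous genes, an alternative chosen after seeing the data, the counts were 1 for CD-1 minus WT at 40 ppm (2), 1 for KO in air (2) and 5 for CD-1 in air (9). In air, deposited values gave 28 for KO (2), 24 for TG (15) and 16 for CD-1 (9). Leaving out 1 array gave 6 to 13 for WT 10 ppm against air, 9 to 18 for WT 40 ppm against air, 0 to 2 for WT 40 ppm against 10 ppm, 0 to 2 for WT 120 ppm against 10 ppm, 3 to 8 for TG minus WT response at 10 ppm, 8 to 12 for KO minus WT response at 40 ppm, 1 to 5 for CD-1 minus WT response at 40 ppm, 1 to 4 for KO against WT in air.

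Values that reversed belonged to strains in air. On deposited values Atf4 in KO was -0.17, Edem1 in CD-1 -0.014, and in TG Atf4 was -0.17, Herpud1 -0.064, Hspa5 -0.11, Pdia3 -0.083, Ppp1r15a -0.26, Sel1l -0.13, Sesn2 -0.041, Slc3a2 -0.26, Syvn1 -0.11 and Xbp1 -0.087, where the median of all genes was itself shifted by -0.36 for KO, -0.48 for TG and -0.23 for CD-1. In TG the mean of probe sets gave Sel1l -0.10 and Sesn2 -0.13, and testing every probe set gave Sesn2 -0.75. Apart from the deposited scaling, the cause of these shifts was not tested. Low signal limits Trib3, above the level minimum on 37 of 80 arrays, Shmt2, on 68, and Pdia3, whose mean over the 80 arrays was 4.73.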
